A study of Mus musculus with 12 samples.

Results

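The question here was how gene expression in CT26 tumor cells treated with both CX3CL1 and IFN-γ differs from that in cells treated with CX3CL1. CT26 is an established line of mouse colon carcinoma, and it was the only line sequenced. The 6 libraries compared were 3 of CT26 cells treated with CX3CL1 (2 µg/ml) and 3 of CT26 cells treated with CX3CL1 together with IFN-γ (100 ng/ml), both for 8 hours and both labelled as biological replicates 1 to 3. What separates the replicates is not in the labels, so p-values measure the spread between these libraries, which may be technical. The compared libraries are 6 of the 12 in the series. The other 6 were 3 without treatment and 3 with IFN-γ alone, and these served as the comparison of IFN-γ without CX3CL1. The sample labels name the condition only, so the doses and the time were taken from the methods and a figure legend. One passage of the study's text names TNF-α beside IFN-γ and places CX3CL1 after them. The labels name IFN-γ only and give no order, and they were followed, so that IFN-γ "added" means below that it was present besides CX3CL1, whichever came first.

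IFN-γ binds a receptor of IFNGR1 and IFNGR2 chains, which activates the kinases JAK1 and JAK2 and then transcription factors of the STAT family. STAT dimers bind the gamma-activated site (GAS) and switch on a first set of genes, among them IRF1, and the complex that holds STAT2 and IRF9 binds the interferon-stimulated response element (ISRE). In tumor cells IFN-γ is known for raising antigen presentation on MHC class I, the CXCR3-ligand chemokines, and inhibitory molecules such as PD-L1. CX3CL1, or fractalkine, is a chemokine whose receptor is CX3CR1.

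Values were deposited as TPM, transcript levels that sum to 1000000 in each library, so a value is a share of the library and carries no read depth. Each library had 10613 to 10824 symbols at 1 TPM or more. Testing covered the 11878 genes whose mean over the 12 libraries reached 0.2 TPM, on log2(TPM + 1) with limma, all libraries sharing the estimate of the spread. Genes are called higher or lower below where the Benjamini-Hochberg adjusted p was under 0.05. All log2 fold changes are on the log2(TPM + 1) scale, so for genes of a few TPM they are smaller than the change in TPM. With 3 libraries a side no exact permutation p can go under 0.1, and calls therefore rest on the spread that limma pools across genes. These are bulk libraries, in which fewer cells with a transcript and less of it per cell cannot be told apart. Within the CX3CL1 group, replicate 2 was the least alike, with median absolute log2 differences of 0.266 and 0.262 from the others, against 0.141 between replicates 1 and 3. The labelled cell line was checked against its markers. VIM, FN1 and KRT18 reached 4831, 393 and 53.6 TPM, while the epithelial markers EPCAM, CDH1, KRT19 and VIL1 did not exceed 0.0613 TPM in any of the 12 libraries. The leukocyte marker PTPRC did not exceed 0.0441 TPM, and the 17 leukocyte markers summed to 28.6 to 49.8 TPM with CX3CL1 and to 31.8 to 43.5 TPM with both agents, nearly all of it CD14. Without CD14 the sums were 0.573 to 2.31 and 0.165 to 0.784 TPM. The transcript of CX3CR1 itself did not exceed 0.154 TPM in any library, that of CX3CL1 0.0178 TPM and that of IFNG 0.0647 TPM.

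Adding IFN-γ to CX3CL1 raised a broad set of interferon-induced genes and lowered a smaller set led by the tight junction gene CLDN6 and the genes of cholesterol synthesis. Added IFN-γ left 447 genes higher (3.76% of those tested) and 111 lower (0.935%), and 210 of the higher and 20 of the lower genes differed by at least 1 on the log2 scale. The 2 groups did not overlap for 446 of the 447 higher genes and for all 111 lower genes, against 14% of all tested genes lying entirely above and 5.48% entirely below. The median log2 fold change of all tested genes was 0.04. Libraries of the same number in the 2 groups deviated together, and a fit that blocked on that number called 1035 genes higher (8.71%) and 334 lower (2.81%). All SEs given below are those of the fit without the block, also beside calls or adjusted p of the blocked fit. The higher count fell to 221 without CX3CL1+IFN-γ replicate 3, and the lower count to 49. The share of higher genes among those called was 80.1%, and it was 65.6% with median-ratio scaling and 60.5% with quantile normalization.

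The largest rise was that of CXCL11, a ligand of the chemokine receptor CXCR3, which the GRCm38 annotation lists as a polymorphic pseudogene (chr5:92359544-92365485, minus strand). CXCL11 stood at 4.19, 2.88 and 8.10 TPM in CX3CL1 replicates 1 to 3 and at 138, 69.9 and 271 TPM in the CX3CL1+IFN-γ replicates, a log2 fold change of 4.61 (SE 0.56, limma adjusted p = 0.00046). Complement factor B, CFB (chr17:34856374-34862518, minus strand), rose from 1.29, 0.696 and 1.64 TPM to 59.6, 21.6 and 44.5 TPM (log2 fold change 4.19, SE 0.39, limma adjusted p = 0.00013). MPEG1, which encodes the pore-forming protein perforin-2, rose from 0.141, 0.117 and 0.384 TPM to 35.8, 8.27 and 27.5 TPM (log2 fold change 4.14, SE 0.50). In all of these the libraries of the 2 groups stood far apart, and within the CX3CL1+IFN-γ group replicate 2 was the lowest. ACOD1, the enzyme that makes itaconate, rose from 1.51, 0.590 and 1.64 TPM to 35.2, 17.8 and 69.1 TPM (log2 fold change 4.05, SE 0.53). The complement gene C4B rose from at most 0.260 TPM to 26.8, 5.54 and 14.04 TPM, and LY6A, the surface antigen Sca-1, from 118, 49.7 and 76.5 TPM to 798, 801 and 1248 TPM. The others of the 15 largest rises were the GTPase genes GM12250, GBP5, TGTP1, IIGP1, GBP4 and MX1, the immunoproteasome gene PSMB9, IFI44L and GM4841, with log2 fold changes between 3.26 (MX1) and 4.29 (GM12250). All 15 stayed called with any 1 of the 6 libraries left out and under every other setting tried at the adjusted p threshold.

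**Figure D1:**
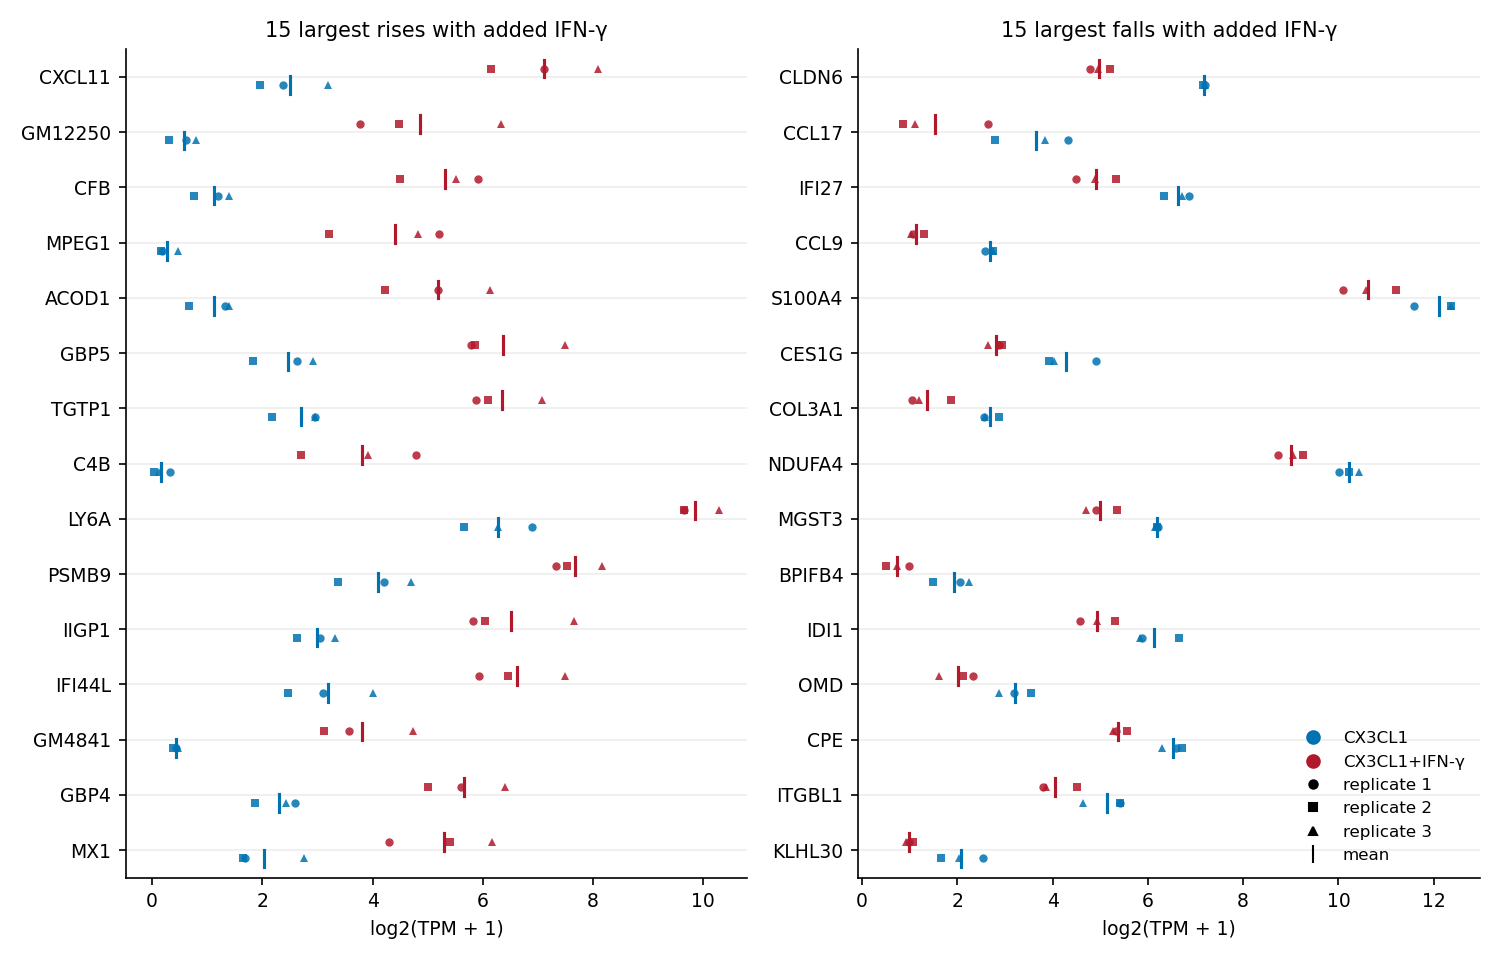
Levels of the 15 genes with the largest rise (left) and the 15 with the largest fall (right) in log2(TPM + 1), with CX3CL1 libraries in blue, CX3CL1+IFN-γ libraries in red, symbols for replicates 1 to 3 and bars for means. For all 30 genes the 2 groups do not overlap, from CXCL11 (log2 fold change 4.61) to CLDN6 (-2.20).

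Among the signalling genes themselves, the receptor chains and kinases differed little, while STAT2, STAT3 and SOCS3 rose. Of the 13 tested genes of IFN-γ receptor and JAK-STAT signalling, 4 were higher and none lower, with a median log2 fold change of 0.18. IFNGR1 averaged 26.7 TPM with CX3CL1 and 23.2 TPM with both agents (log2 fold change -0.19, SE 0.10), and JAK1 and JAK2 had log2 fold changes of 0.06 (SE 0.11) and 0.24 (SE 0.18), none of which passed the test. STAT2, part of the ISRE-binding complex, rose from 59.5, 48.1 and 77.2 TPM to 153, 141 and 188 TPM (log2 fold change 1.39, SE 0.22, limma adjusted p = 0.0025). SOCS3, a feedback inhibitor of cytokine receptors, rose from 18.4, 18.2 and 22.5 TPM to 58.0, 32.0 and 43.0 TPM (log2 fold change 1.10, SE 0.20), and STAT3 rose by 0.75 (SE 0.17), a call lost without CX3CL1 replicates 2 or 3 or CX3CL1+IFN-γ replicates 1 or 3 (adjusted p up to 0.099). SOCS1, the inhibitor best known for IFN-γ signalling, had a log2 fold change of 0.60 (SE 0.25) and was not called (limma adjusted p = 0.23), but was with the replicate block (adjusted p = 0.0094). The count fell to 2 of 13 without CX3CL1 replicate 2 and without CX3CL1+IFN-γ replicate 3.

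Of the 10 tested interferon regulatory factor genes, 3 were higher. IRF1, a transcription factor gene of the first wave after IFN-γ, rose from 29.2, 23.5 and 34.0 TPM to 77.7, 66.9 and 126 TPM (log2 fold change 1.57, SE 0.28, limma adjusted p = 0.0057). IRF7 had the largest change of the group, from a mean of 141 TPM to 701 TPM (log2 fold change 2.33, SE 0.41), and IRF5 rose by 1.55 (SE 0.30). All 3 stayed called with any 1 of the 6 libraries left out. IRF9, the DNA-binding part of the complex with STAT2, had a log2 fold change of 0.38 (SE 0.11, limma adjusted p = 0.073) and was called with the replicate block (adjusted p = 0.023). IRF2, IRF3 and IRF8 were not called, with log2 fold changes between -0.06 and 0.39.

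To show the letters that these factors are known to bind, the bases before the transcription start were read for 1 gene of the first wave, IRF1, and for 2 ISRE-bearing genes described below, GBP2 and ISG15. Sequences are from RefSeq on GRCm38.p6 and cover the 250 bases before the start, 5′ to 3′ on the strand of the gene: IRF1 at chr11:53769764-53770013 (plus strand), GBP2 at chr3:142620413-142620662 (plus strand) and ISG15 at chr4:156200819-156201068 (minus strand). Capitals mark matches, on either strand, to the GAS letters TTCNNNGAA in IRF1 and to the ISRE letters (GAAA, any 2 bases, GAAA) in GBP2 and ISG15.
IRF1: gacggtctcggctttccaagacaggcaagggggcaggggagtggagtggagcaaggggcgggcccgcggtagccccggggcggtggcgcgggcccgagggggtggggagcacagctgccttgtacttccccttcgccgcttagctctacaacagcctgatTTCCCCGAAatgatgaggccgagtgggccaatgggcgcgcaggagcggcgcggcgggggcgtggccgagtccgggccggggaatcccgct
GBP2: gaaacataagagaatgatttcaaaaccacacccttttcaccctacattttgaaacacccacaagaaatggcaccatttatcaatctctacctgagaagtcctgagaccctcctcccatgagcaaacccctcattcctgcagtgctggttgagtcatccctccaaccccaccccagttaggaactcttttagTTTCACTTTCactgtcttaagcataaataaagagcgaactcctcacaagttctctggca
ISG15: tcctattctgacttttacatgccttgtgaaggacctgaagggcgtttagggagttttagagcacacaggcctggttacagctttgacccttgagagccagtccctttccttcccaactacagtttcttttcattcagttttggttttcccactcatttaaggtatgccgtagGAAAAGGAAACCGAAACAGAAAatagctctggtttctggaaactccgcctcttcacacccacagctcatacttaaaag
The IRF1 match begins 90 bases before the start. The GBP2 match, on the other strand, begins 59 bases before it, and the 3 overlapping matches of ISG15 lie between 78 and 57 bases before it. IRF1 has 2 windows in RefSeq, and the one with the most GAS matches was shown. Among all 32851 mouse promoter windows of this length, 7.02% hold the GAS letters and 2.98% the ISRE letters. A match is a description of the letters and not a measured binding site. No share is given over the genes called, since only 77.9% of the higher and 79.3% of the lower genes had a window under the same symbol.

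The interferon-inducible GTPases, which act against intracellular pathogens, rose as a group. All 11 guanylate-binding protein (GBP) genes were higher, with a median log2 fold change of 2.71 and a range from 1.35 (GBP8) to 3.91 (GBP5). GBP2 rose from 75.9, 56.5 and 85.9 TPM to 582, 479 and 939 TPM (log2 fold change 3.14, SE 0.36, limma adjusted p = 0.00042). GBP3 rose from 82.4, 78.7 and 116 TPM to 601, 571 and 869 TPM (log2 fold change 2.86, SE 0.29, limma adjusted p = 0.00021). GBP5 rose from 5.21, 2.57 and 6.55 TPM to 53.9, 57.2 and 179 TPM (log2 fold change 3.91, SE 0.55). Of the 14 tested immunity-related GTPase (IRG) genes, 11 were higher (median 2.00), led by GM12250, which rose from 0.531, 0.245 and 0.730 TPM to 12.7, 21.4 and 79.4 TPM. The annotation that gave the gene positions lists GM12250 as a processed pseudogene. IRGQ had a log2 fold change of 0.05 (SE 0.16). The GBP and IRG genes include near-identical copies such as TGTP1 and TGTP2, and how reads shared by copies were counted is not given in the sources used here, so the values of single members of these families are less certain than those of the group. The same holds for the class I, OAS, IFIT, IFI203 and IFI204, and C4 genes. The counts were 10 to 11 for the GBPs and 9 to 11 for the IRGs with 1 library left out.

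Of the 54 antiviral interferon-stimulated genes, 41 were higher, 1 was lower and 12 were not called, and 52 had positive log2 fold changes (median 1.13). In the blocked fit 48 were higher and 2 lower, the second being IFITM1 (-0.42, SE 0.18). IFI44L, IFIT1BL1, MX1 and ZBP1 led the list, each at a log2 fold change of 2.98 or more. ZBP1, a sensor of left-handed nucleic acids, rose from 40.6, 26.4 and 57.0 TPM to 397, 326 and 415 TPM (log2 fold change 3.23, SE 0.35, limma adjusted p = 0.00029). ISG15 and USP18, which are among the best known members, did not pass the test. ISG15, the ubiquitin-like modifier, stood at 524, 321 and 684 TPM with CX3CL1 and at 624, 915 and 1095 TPM with both agents, so that the groups overlapped (log2 fold change 0.81, SE 0.25, limma adjusted p = 0.098, and 0.029 with the replicate block). USP18, which removes ISG15 from its targets, stood at 181, 124 and 239 TPM and at 250, 363 and 470 TPM (log2 fold change 0.99, SE 0.29, limma adjusted p = 0.075, and 0.020 with the block). EIF2AK2, BST2 and DHX58 were also among those not called, with log2 fold changes of 0.27 (SE 0.15), 1.01 (SE 0.36) and 0.84 (SE 0.27). The lower gene was IFI27, which fell from 115, 80.3 and 105 TPM to 21.6, 39.4 and 28.8 TPM (log2 fold change -1.73, SE 0.20, limma adjusted p = 0.00043), and it fell after IFN-γ alone as well (-1.56). The count of higher genes dropped to 26 without CX3CL1 replicate 1 and to 20 without CX3CL1+IFN-γ replicate 3, and it was 30 without CX3CL1 replicate 2.

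**Figure D2:**
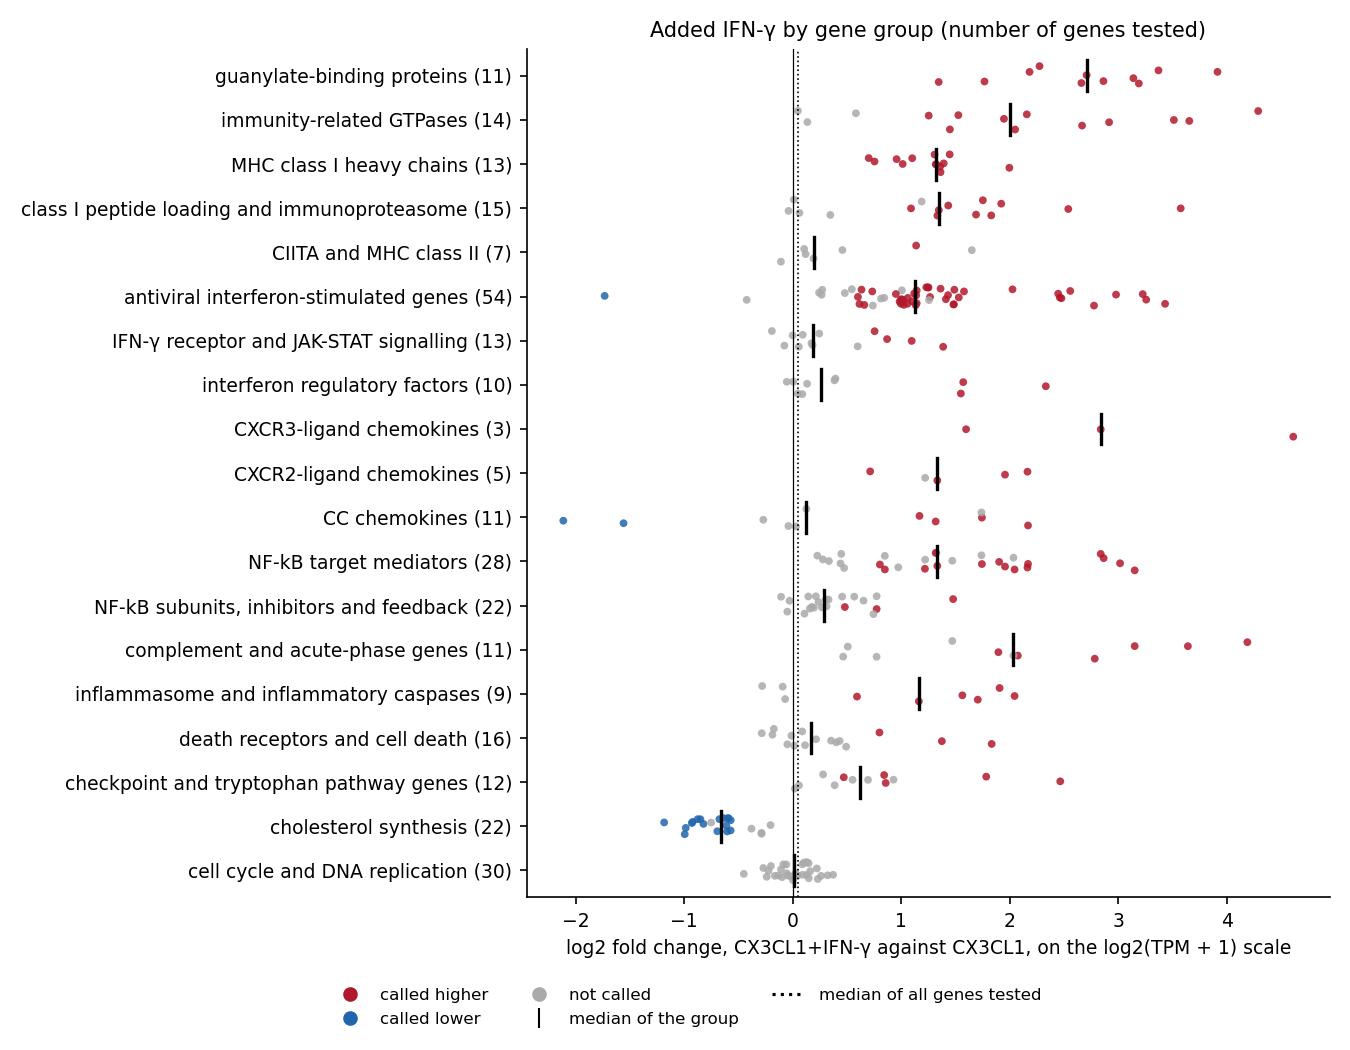
Log2 fold change of CX3CL1+IFN-γ against CX3CL1 for each tested gene (points) in 19 gene groups, with genes called higher in red, called lower in blue and not called in grey, a bar for the median of each group and a dotted line for the median of all genes tested (0.04). The GBP genes (median 2.71) lie farthest to the right among groups of more than 3 genes, and the cholesterol synthesis genes (median -0.66) lie to the left of 0.

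The class I antigen presentation genes rose together. All 13 tested genes of the MHC class I heavy chain group, which here includes B2M, were higher (median 1.32). H2-K1, a classical heavy chain, rose from 487, 299 and 446 TPM to 1077, 892 and 1050 TPM (log2 fold change 1.32, SE 0.19, limma adjusted p = 0.0015). B2M, the light chain, rose from 3347, 2796 and 2428 TPM to 9931, 6344 and 7303 TPM (log2 fold change 1.45, SE 0.25, limma adjusted p = 0.0044). The nonclassical H2-T23 had the largest change of the group at 2.00 (SE 0.24). Of the 15 genes of peptide loading and the immunoproteasome, 10 were higher (median 1.35). PSMB9, an inducible proteasome subunit (chr17:34181987-34187764, minus strand), rose from 17.6, 9.43 and 25.0 TPM to 159, 185 and 285 TPM (log2 fold change 3.58, SE 0.33, limma adjusted p = 0.00013). TAP1, which carries peptides into the endoplasmic reticulum, rose by 1.69 (SE 0.28), TAPBP by 1.92 (SE 0.18) and NLRC5, the class I transactivator, by 1.75 (SE 0.31). The general chaperones CALR, CANX and PDIA3 and the activator subunit PSME3 were not called, with log2 fold changes between -0.04 and 0.35. TAP2, the partner of TAP1, had a log2 fold change of 1.19 (SE 0.39) and was called with the replicate block (limma adjusted p = 0.12, and 0.00037 with the block). The class I count was 8 of 13 without CX3CL1+IFN-γ replicate 3 and at least 10 without any other library. The class II side was near the floor at this time: CIITA, the class II transactivator, did not exceed 0.0259 TPM and H2-AB1 was listed at 0 in every library, and of the 7 tested genes of that group only CTSS, a protease, was called, from at most 0.0970 TPM to 1.74, 0.778 and 1.53 TPM. With the block CD74, the invariant chain, was called too (1.65, SE 0.68, limma adjusted p = 0.22, and 0.00056 with the block).

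Among 12 tested checkpoint and tryptophan pathway genes, 5 were higher and none lower, and with the replicate block 7 were higher, NECTIN2 (0.69, SE 0.22) and VTCN1 (0.55, SE 0.26) being the others. CD274, which encodes PD-L1 (chr19:29367455-29388095, plus strand), rose from 6.12, 5.79 and 8.13 TPM to 34.7, 27.4 and 72.2 TPM (log2 fold change 2.46, SE 0.43, limma adjusted p = 0.0053). LGALS9, which encodes galectin-9, rose by 0.84 (SE 0.14), and the tryptophan-degrading enzyme gene IDO2 by 1.78 (SE 0.23). IDO1 rose from at most 0.0233 TPM to 1.06, 0.441 and 1.05 TPM, and WARS, the tryptophanyl-tRNA synthetase, by 0.47 (SE 0.12). CD47, CD80, CD276 and PVR were not called. The count was 3 of 12 without CX3CL1+IFN-γ replicate 3, where IDO1 and WARS lost their calls. WARS lost it as well without any of the CX3CL1 replicates and without CX3CL1+IFN-γ replicate 1, with limma adjusted p up to 0.17, and the largest for IDO1 was 0.059.

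Most of the tested chemokine genes of the CXC family were higher. All 3 CXCR3 ligands, which attract activated T cells, were higher. CXCL10 rose from 119, 64.4 and 163 TPM to 532, 448 and 1965 TPM (log2 fold change 2.84, SE 0.62, limma adjusted p = 0.020), replicate 3 of the combination being well above the others. Its call was lost without CX3CL1 replicate 2 and without CX3CL1+IFN-γ replicate 3 (adjusted p up to 0.0845). CXCL9 was at most 0.0545 TPM with CX3CL1 and stood at 3.32, 1.02 and 2.42 TPM with both. Of the 5 tested CXCR2 ligands, which attract neutrophils, 4 were higher. CXCL2 rose from 0.30, 0.970 and 0.655 TPM to 4.07, 3.98 and 8.80 TPM (log2 fold change 1.96, SE 0.22, limma adjusted p = 0.00041). CXCL3 rose from 3.99, 3.25 and 5.90 TPM to 16.3, 19.4 and 36.3 TPM (log2 fold change 2.16, SE 0.28, limma adjusted p = 0.00068). CXCL1, by far the most abundant, stood at 620, 305 and 393 TPM with CX3CL1 and at 1551, 500 and 1218 TPM with both, and the groups overlapped (log2 fold change 1.22, SE 0.38, limma adjusted p = 0.098, and 0.0023 with the replicate block). CXCL5 (1.33, SE 0.35) was the one called gene whose groups overlapped, and it lost its call without CX3CL1 replicates 2 or 3 or CX3CL1+IFN-γ replicates 1 or 3 (adjusted p up to 0.18), and PPBP rose by 0.71 (SE 0.12).

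Of 11 tested CC chemokine genes, 4 were higher and 2 lower, and with the block 5 and 2. CCL5, which attracts T cells, rose from 20.1, 17.6 and 39.5 TPM to 64.2, 69.3 and 129 TPM (log2 fold change 1.74, SE 0.31, limma adjusted p = 0.0054). CCL2, the monocyte attractant, rose from 44.1, 13.2 and 26.2 TPM to 162, 55.7 and 171 TPM (log2 fold change 2.17, SE 0.54, limma adjusted p = 0.040), and CCL4 and CCL20 rose by 1.17 (SE 0.26) and 1.32 (SE 0.25). In the other direction CCL17, a CCR4 ligand, fell from 19.1, 5.89 and 13.3 TPM to 5.22, 0.805 and 1.17 TPM (log2 fold change -2.11, SE 0.48, limma adjusted p = 0.025). CCL9 fell from 4.99, 5.68 and 5.77 TPM to 1.11, 1.46 and 1.04 TPM (log2 fold change -1.56, SE 0.13, limma adjusted p = 5.6e-05). CCL9, CCL5 and CCL20 stayed called with any 1 of the 6 libraries left out. CCL2 lost its call without CX3CL1 replicates 2 or 3 or CX3CL1+IFN-γ replicates 1 or 3 (adjusted p up to 0.17), CCL4 without CX3CL1 replicates 2 or 3 or CX3CL1+IFN-γ replicate 3 (up to 0.080), and CCL17 without CX3CL1 replicates 1 or 3 or CX3CL1+IFN-γ replicates 2 or 3 (up to 0.11).

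The windows before the starts of CXCL10 (chr5:92348890-92349139, minus strand) and CXCL2 (chr5:90903649-90903898, plus strand) are shown. CXCL10 belongs to the interferon-induced chemokines. CXCL2 had a larger change on the log2(TPM + 1) scale in the presence of CX3CL1, called in the blocked fit and not in the unblocked one, as described below. The windows are again the 250 bases before the RefSeq start on GRCm38.p6. Capitals mark the ISRE letters and the kB consensus, the site of NF-kB, on either strand.
CXCL10: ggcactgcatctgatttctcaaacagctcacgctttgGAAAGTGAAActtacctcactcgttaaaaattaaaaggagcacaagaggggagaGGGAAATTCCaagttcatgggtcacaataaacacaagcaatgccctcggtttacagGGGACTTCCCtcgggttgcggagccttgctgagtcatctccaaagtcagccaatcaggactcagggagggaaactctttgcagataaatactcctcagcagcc
CXCL2: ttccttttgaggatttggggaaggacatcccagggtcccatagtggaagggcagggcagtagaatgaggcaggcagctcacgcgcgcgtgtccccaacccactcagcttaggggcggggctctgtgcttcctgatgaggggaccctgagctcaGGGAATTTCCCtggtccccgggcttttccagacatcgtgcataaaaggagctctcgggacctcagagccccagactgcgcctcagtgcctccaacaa
CXCL10 holds 1 ISRE match, beginning 213 bases before the start, and 2 kB matches, beginning 159 and 103 bases before it. CXCL2 holds 2 overlapping kB matches, beginning 97 and 96 bases before it, and no ISRE match in this window. Of all windows, 3.9% hold the kB consensus.

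NF-kB is the transcription factor family of inflammatory signalling, and its target mediators were tested apart from its own subunits and inhibitors. Of 28 tested NF-kB target mediators, 15 were higher, none was lower and all 28 had positive log2 fold changes (median 1.33), and with the replicate block 23 were higher. IL6 (chr5:30013114-30019981, plus strand) rose from 2.68, 1.67 and 2.03 TPM to 24.9, 13.6 and 29.6 TPM (log2 fold change 2.87, SE 0.22, limma adjusted p = 3.7e-05). NOS2, the inducible nitric oxide synthase (chr11:78920787-78960254, plus strand), rose from 3.70, 0.368 and 1.40 TPM to 39.4, 5.15 and 31.9 TPM (log2 fold change 3.02, SE 0.61, limma adjusted p = 0.013). In both genes the lowest library of each group was replicate 2. The acute-phase gene SAA3 rose from 60.3, 16.9 and 32.8 TPM to 636, 168 and 241 TPM (log2 fold change 3.15, SE 0.59), and the decoy receptor gene IL13RA2 from 5.63, 4.75 and 3.98 TPM to 20.9, 21.5 and 19.1 TPM (1.90, SE 0.13). LCN2, which encodes the iron-binding lipocalin-2, had a large difference with a large error (2.03, SE 1.02, limma adjusted p = 0.33) and was called with the block (adjusted p = 0.0024). PTGS2, VCAM1, CSF1 and CSF2 were not called, with log2 fold changes between 0.23 and 0.44. Of the 22 genes of NF-kB subunits, inhibitors and feedback, 3 were higher (median 0.29), and 4 with the block. The 3 were BCL3 (1.48, SE 0.31), TNFAIP3 (0.77, SE 0.17) and MAP3K14 (0.48, SE 0.13). NFKB1, RELA and REL had log2 fold changes between -0.03 and 0.14. The mediator count was 9 without CX3CL1+IFN-γ replicate 3 and 21 without CX3CL1+IFN-γ replicate 2, and the NF-kB feedback count was 0 without CX3CL1 replicates 2 or 3 or CX3CL1+IFN-γ replicates 1 or 3. NOS2 lost its call without CX3CL1+IFN-γ replicates 1 or 3 (adjusted p up to 0.070).

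Of 27 genes that the study named as induced by CX3CL1 in these cells, 17 were higher still with IFN-γ and none was lower (median 1.43), and 19 were higher with the block. This list was drawn up by the study on these libraries, the CX3CL1 libraries of the present comparison included, so its direction is not independent evidence. MMP13, a collagenase, rose from 6.43, 4.95 and 8.38 TPM to 26.2, 15.5 and 25.1 TPM (log2 fold change 1.61, SE 0.23, limma adjusted p = 0.0018). MMP3, MMP9 and MMP10 were not called, with log2 fold changes of -0.06, -0.15 and 0.25. The count was 11 without CX3CL1 replicate 2 and 11 without CX3CL1+IFN-γ replicate 3. Among all 11 tested matrix metalloproteinase and TIMP genes, MMP13 and MMP28 (0.83, SE 0.20) were higher, and MMP28 lost its call without CX3CL1 replicates 2 or 3 or CX3CL1+IFN-γ replicates 1 or 3 (adjusted p up to 0.13).

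Of 9 tested inflammasome genes, 6 were higher. CASP4, the mouse caspase-11 that senses cytosolic lipopolysaccharide, rose from 17.3, 14.1 and 16.6 TPM to 82.6, 40.7 and 72.7 TPM (log2 fold change 1.91, SE 0.30, limma adjusted p = 0.0030). IL1A, an alarmin cytokine, rose from 0.451, 0.245 and 0.451 TPM to 8.27, 2.93 and 4.05 TPM (log2 fold change 2.04, SE 0.30, limma adjusted p = 0.0016). NLRP3, the sensor, rose by 1.71 (SE 0.35), CASP1 by 1.16 (SE 0.19), CASP12 by 1.56 (SE 0.22) and GSDMD, the pore protein of pyroptosis, by 0.59 (SE 0.11). NLRP3 lost its call without CX3CL1 replicates 2 or 3 or CX3CL1+IFN-γ replicates 1 or 3 (adjusted p up to 0.076), and GSDMD without CX3CL1+IFN-γ replicate 3 (0.063). The adaptor gene PYCARD did not exceed 0.0747 TPM, IL1B 0.157 TPM and IL18 0.110 TPM in any library. Of 16 tested cell death genes, MLKL, the executor of necroptosis (0.80, SE 0.12), FAS (1.37, SE 0.33) and TNFSF10, which encodes TRAIL (1.83, SE 0.47), were higher. FAS lost its call without CX3CL1 replicates 2 or 3 or CX3CL1+IFN-γ replicates 1 or 3 (adjusted p up to 0.13). TNFSF10 lost its call with any library but CX3CL1+IFN-γ replicate 1 left out (adjusted p up to 0.17). MLKL kept its call with any 1 of the 6 libraries left out. With the block BAK1 (0.43, SE 0.12) and TNFRSF1A (0.35, SE 0.10) were higher too, 5 in all. Among 11 tested complement and acute-phase genes, 6 were higher, and with the replicate block all 11. Besides CFB and C4B these were C1RA (2.07, SE 0.25), C1S1 (2.78, SE 0.31), the C1 inhibitor SERPING1 (1.90, SE 0.26) and SAA3. IL18BP, which neutralizes IL-18, rose from 1.64, 1.39 and 2.96 TPM to 14.3, 12.8 and 18.7 TPM (log2 fold change 2.46, SE 0.21, limma adjusted p = 7.7e-05).

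CLDN6 had the smallest p of the genes that fell. This claudin gene (chr17:23679249-23682446, plus strand) stood at 147, 141 and 145 TPM with CX3CL1 and at 26.5, 36.1 and 29.8 TPM with both agents (log2 fold change -2.20, SE 0.11, limma adjusted p = 8.7e-07). The mean without treatment was 250.3 TPM and that with IFN-γ alone 68.2 TPM. Of the 5 other tested claudin and junction genes none was called, TJP1 having a log2 fold change of 0.00 (SE 0.11). The others of the 15 largest falls that stayed called with any 1 of the 6 libraries left out were IFI27, CCL9, the carboxylesterase gene CES1G (-1.47, SE 0.23), the collagen gene COL3A1 (-1.31, SE 0.22), the mitochondrial NDUFA4 (-1.22, SE 0.19), MGST3 (-1.20, SE 0.17), BPIFB4 (-1.19, SE 0.19), the peptidase gene CPE (-1.15, SE 0.14) and IDI1. NDUFA4 fell from 1036, 1200 and 1390 TPM to 424, 615 and 526 TPM. S100A4, a calcium-binding protein linked to cell migration, fell from 3061, 5307 and 5261 TPM to 1086, 2368 and 1540 TPM (log2 fold change -1.48, SE 0.37, limma adjusted p = 0.042). S100A4 lost its call without CX3CL1 replicates 2 or 3 or CX3CL1+IFN-γ replicates 1 or 3 (adjusted p up to 0.17). OMD, ITGBL1 and KLHL30 were the remaining ones of the 15, and all lost their calls without CX3CL1 replicate 1 and without CX3CL1+IFN-γ replicates 1 or 3 (adjusted p up to 0.16). OMD and ITGBL1 lost theirs also without CX3CL1 replicate 2, OMD without CX3CL1+IFN-γ replicate 2, and KLHL30 without CX3CL1 replicate 3.

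Among the gene groups, cholesterol synthesis held the most lower genes. Of its 22 tested genes 17 were lower and none higher, all 22 had negative log2 fold changes (median -0.66), and 21 did not overlap between the groups. The blocked fit called 19 lower, with HSD17B7 (-0.75, SE 0.23) and EBP (-0.29, SE 0.10) besides the 17. HMGCS1, the first committed enzyme of the mevalonate route, fell from 259, 291 and 220 TPM to 134, 131 and 135 TPM (log2 fold change -0.93, SE 0.16, limma adjusted p = 0.0049). MSMO1, of the late steps, fell from 400, 512 and 424 TPM to 202, 234 and 230 TPM (log2 fold change -0.995, SE 0.12, limma adjusted p = 0.00043). IDI1, which makes dimethylallyl diphosphate, had the largest change, from 57.9, 99.8 and 56.2 TPM to 22.8, 38.7 and 29.6 TPM (-1.19, SE 0.22). MVD, NSDHL, CYP51 and LSS had log2 fold changes of -0.99, -0.92, -0.88 and -0.85. MVD lost its call without CX3CL1 replicates 1 or 3 or CX3CL1+IFN-γ replicates 2 or 3 (adjusted p up to 0.070). The regulator SREBF2 (-0.29, SE 0.10) was not called, while INSIG1, which holds the regulator in the endoplasmic reticulum, was lower (-0.82, SE 0.18), a call lost without CX3CL1 replicate 1 or CX3CL1+IFN-γ replicates 2 or 3 (adjusted p up to 0.072). The count was 18 without CX3CL1 replicate 2, and it fell to 11 without CX3CL1 replicate 1 and without CX3CL1+IFN-γ replicate 3. The window before the start of HMGCS1 (chr13:119690101-119690350, plus strand, RefSeq on GRCm38.p6) is shown with the sterol regulatory element letters TCACNCCAC in capitals.
HMGCS1: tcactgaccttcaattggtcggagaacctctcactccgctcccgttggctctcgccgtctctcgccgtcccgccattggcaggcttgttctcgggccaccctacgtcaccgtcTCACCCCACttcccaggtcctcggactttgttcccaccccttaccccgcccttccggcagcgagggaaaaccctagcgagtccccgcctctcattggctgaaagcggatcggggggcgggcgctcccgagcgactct
The match begins 137 bases before the start, and 1.05% of all windows hold these letters on either strand.

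**Figure D3:**
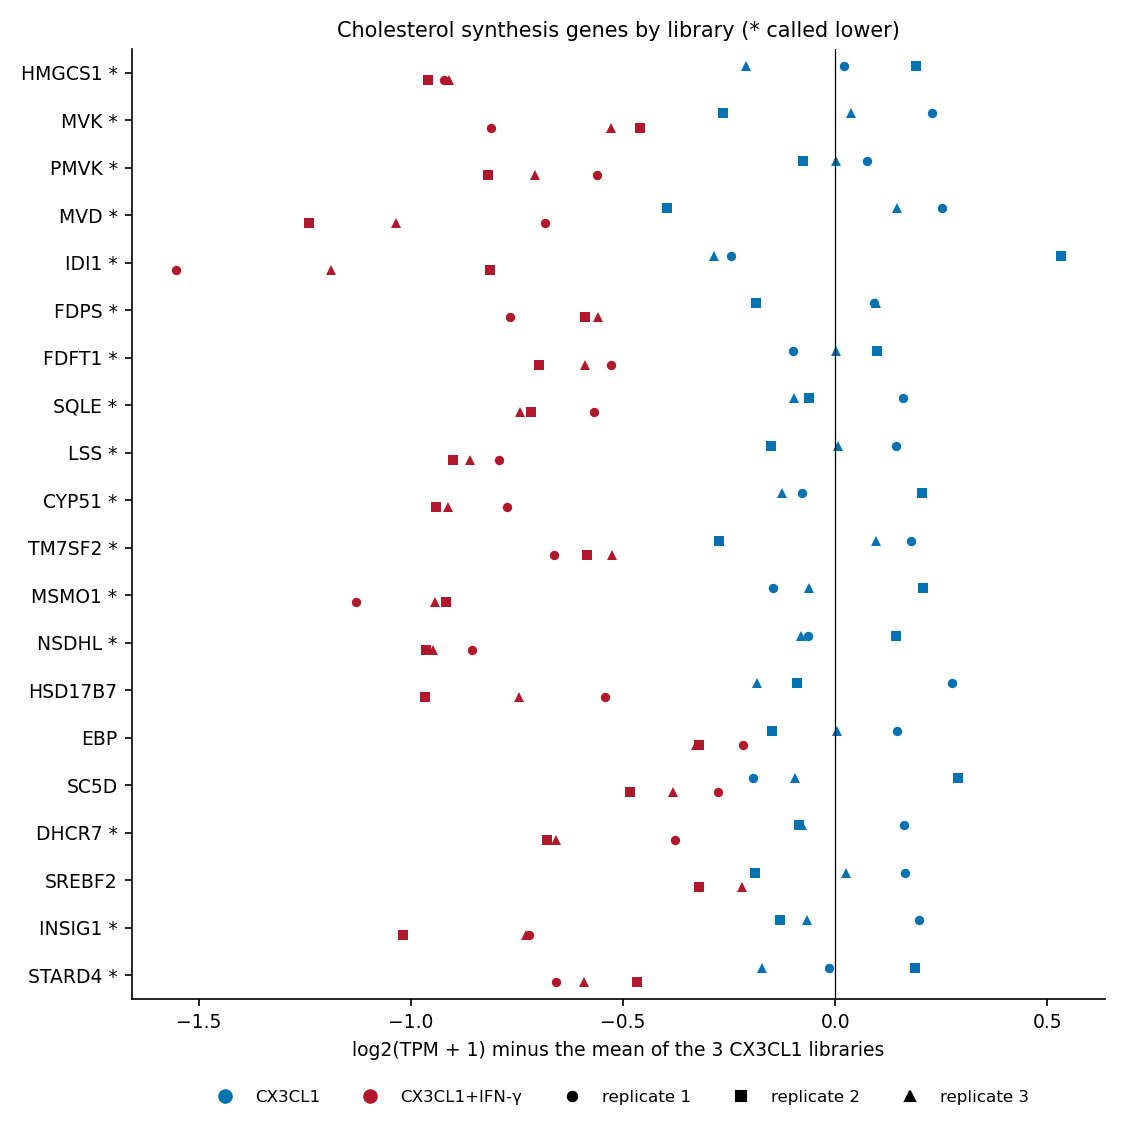
Levels of 20 of the cholesterol synthesis genes in each library as log2(TPM + 1) minus the mean of the 3 CX3CL1 libraries, with CX3CL1 in blue, CX3CL1+IFN-γ in red and symbols for replicates. An asterisk marks the 16 of these called lower, and for all 20 the 2 groups do not overlap.

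None of the 30 cell cycle and DNA replication genes was called (median 0.02), and with the replicate block 2 were higher and 1 lower. MKI67 had a log2 fold change of 0.10 (SE 0.13) and PCNA of -0.10 (SE 0.11). None of the 6 tested colon carcinoma and CT26 markers was called, all with negative log2 fold changes between -0.57 and -0.11. With the replicate block 3 of them were lower, and 2 were lower after IFN-γ alone. The 3 were VIM (-0.57, SE 0.21), FN1 (-0.35, SE 0.32) and SPARC (-0.40, SE 0.12), with the SEs of the unblocked fit. None of the 4 tested fractalkine axis genes was called, and the sheddases ADAM10 and ADAM17 had log2 fold changes of -0.24 (SE 0.16) and 0.10 (SE 0.11). Of the interferon genes, IFNB1 did not exceed 0.941 TPM in any library and was not called (0.35, SE 0.17), and of the interferon list the receptor gene IFNAR2 alone was called with the block (0.75, SE 0.20). Among 5 tested genes of the IL-7, IL-12, IL-15 and IL-18 axis, IL15 (1.40, SE 0.34) and IL18BP were higher, and IL15 lost its call with any library but CX3CL1+IFN-γ replicate 1 left out (adjusted p up to 0.15).

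The same step was then compared with IFN-γ in the absence of CX3CL1, whose log2 fold changes come from the other 6 libraries. Both comparisons take the estimate of the spread from all libraries, so their calls are not independent of each other. After IFN-γ alone 702 genes were higher (5.91%) and 230 lower (1.94%) than without treatment. Of the 447 genes higher when IFN-γ was added to CX3CL1, 383 were also higher after IFN-γ alone (85.7%), and these were 54.6% of the 702. Of the 111 lower genes, 90 were also lower after IFN-γ alone (81.1%), or 39.1% of the 230. No gene was called in opposite directions. Among the 447 higher genes, 445 had a positive log2 fold change after IFN-γ alone. For these 447 genes the median log2 fold change was 0.94 with CX3CL1 present and 1.13 without it, and for the 111 lower genes it was -0.66 and -0.67. Both sets were picked in the comparison with CX3CL1 present, which can enlarge the medians of that comparison only. The GBPs had medians of 2.71 with CX3CL1 and 4.10 without, the antiviral genes 1.13 and 2.45, the class I genes 1.32 and 1.84, the cholesterol genes -0.66 and -0.74, and the NF-kB mediators 1.33 and 1.27. Gene by gene, 17 of the 28 tested NF-kB mediators had a lower log2 fold change with CX3CL1 present and 11 a higher one. The median of these differences was -0.28.

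**Figure D4:**
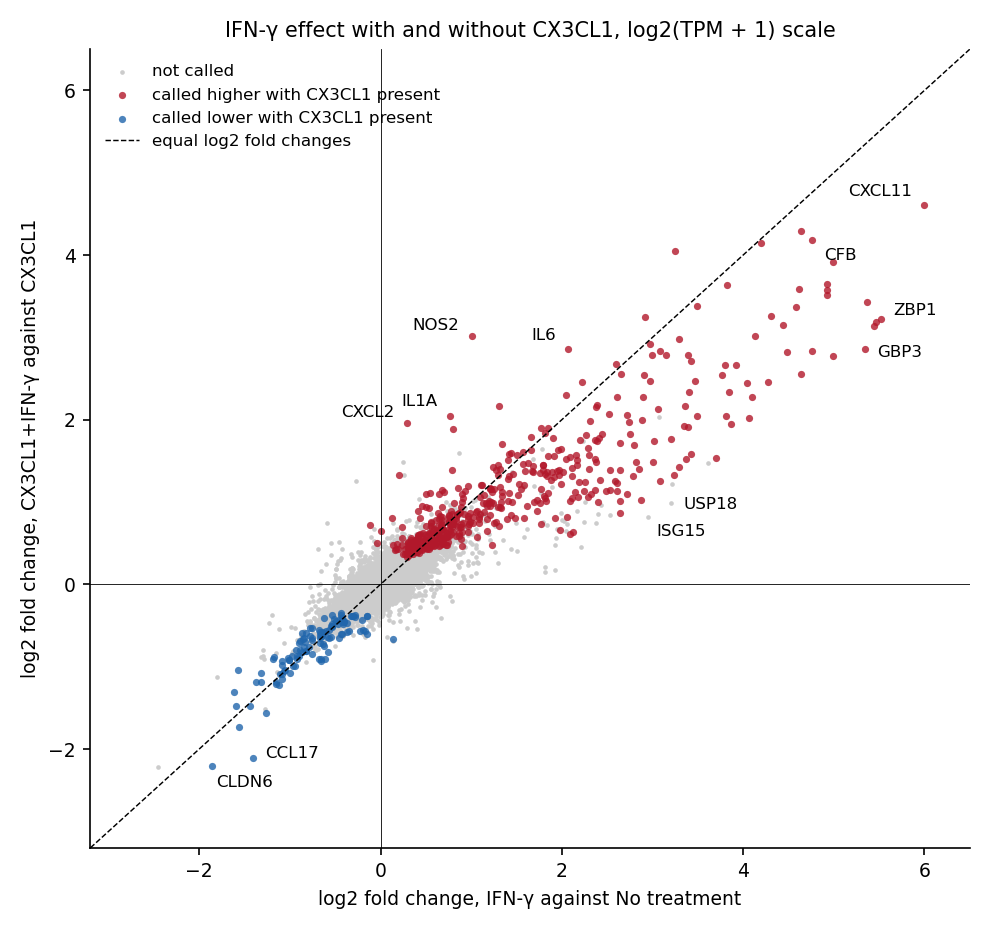
Log2 fold change after IFN-γ alone (IFN-γ against No treatment, horizontal) and after IFN-γ added to CX3CL1 (vertical) for the 11878 tested genes, on the log2(TPM + 1) scale, with genes called in the second comparison coloured and equal changes on the dashed line. On this scale ZBP1, GBP3, USP18 and ISG15 lie below the line, NOS2, IL6, IL1A and CXCL2 above it, and the falls such as CLDN6 close to it.

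The difference between the 2 effects of IFN-γ was tested gene by gene as an interaction. No gene passed the test in limma without a block (0%), where 273 genes had an unadjusted p under 0.05 and the smallest adjusted p was 0.079, shared by 9 genes. In the blocked fit 52 genes passed, 49 with a smaller log2 change when CX3CL1 was present (0.413%) and 3 with a positive difference (0.0253%). Of the 49, 26 were on the antiviral, GBP or IRG lists, which held 54, 11 and 14 tested genes. The NF-kB lists, with 22 subunit, inhibitor and feedback genes and 28 target mediators tested, held 4 of the 49. For comparison, the 49 were 0.413% of all genes tested. All 49 were higher after IFN-γ alone, while 33 were higher when IFN-γ was added to CX3CL1. Among them GBP3 had the largest difference, with means of 12.7 TPM without treatment, 541 TPM with IFN-γ, 92.3 TPM with CX3CL1 and 680 TPM with both, and log2 fold changes of 5.34 alone and 2.86 with CX3CL1 (difference -2.48, SE 0.41, limma adjusted p = 0.079, and 0.012 with the block). USP18 averaged 33.1, 306, 181 and 361 TPM in the same order (difference -2.21, SE 0.41, limma adjusted p = 0.12, and 0.019 with the block). ISG15 averaged 110, 860, 510 and 878 TPM (difference -2.14, SE 0.36, limma adjusted p = 0.079, and 0.014 with the block). In these genes the CX3CL1 libraries already stood above the untreated ones, and the levels with both agents were near those with IFN-γ alone. A negative difference, by which these genes were picked, requires a smaller log2 change from CX3CL1 with IFN-γ than without it. The ratios that follow are therefore in part set by the selection and are not separate evidence. Over the 49 genes the mean with CX3CL1 was between 1.76 and 88.6 times the untreated mean (median 3.43), and the mean with both agents between 0.794 and 19.8 times the mean with IFN-γ (median 1.15). The upper end is CXCL1, which averaged 4.96 TPM without treatment, 55.0 with IFN-γ, 440 with CX3CL1 and 1090 with both. ZBP1, GBP2, CMPK2, C3, IFIT3B and MX2 made up the rest of the 10 largest differences, between -2.31 and -2.04.

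The 3 genes with a positive difference under the block were CXCL2, THBS1 and PPP1R2-PS3. The log2 fold change of CXCL2 after IFN-γ was 0.29 without CX3CL1 and 1.96 with it. For the others the sign differed, at -0.59 and 0.74 for THBS1 and at -0.49 and 0.19 for PPP1R2-PS3. PPP1R2-PS3 averaged under 1 TPM in every group. CXCL2 was listed at 0 in all 3 untreated libraries and stood at 0.294, 0.142 and 0.234 TPM with IFN-γ alone, against 4.07, 3.98 and 8.80 TPM with both agents (difference 1.67, SE 0.32, limma adjusted p = 0.14, and 0.049 with the block). THBS1, which encodes thrombospondin-1, averaged 41.7 TPM without treatment, 26.5 with IFN-γ, 44.4 with CX3CL1 and 72.7 with both (difference 1.33, SE 0.55, limma adjusted p = 1, and 0.014 with the block). IL6, NOS2, IL1A and ACOD1 also had their highest levels with both agents, but their differences did not pass in either fit. IL6 averaged 0.283 TPM without treatment, 4.39 with IFN-γ, 2.13 with CX3CL1 and 22.7 with both (difference 0.79, SE 0.31, adjusted p with the block 0.67). NOS2 averaged 0.0324, 1.23, 1.82 and 25.5 TPM in that order (difference 2.01, SE 0.87, adjusted p with the block 0.36). IL1A averaged 0.0269, 0.842, 0.383 and 5.08 TPM (difference 1.28, SE 0.42, adjusted p with the block 0.18), and ACOD1 0.0808, 12.2, 1.25 and 40.7 TPM (difference 0.80, SE 0.75). A fold in TPM and a difference on the log2(TPM + 1) scale are not the same for genes this low. As ratios of these means, IFN-γ raised IL6, NOS2, IL1A and ACOD1 less with CX3CL1 present than without it. Those ratios rest on untreated means near the floor. For SOD2, the mitochondrial superoxide dismutase, the means were 55.8, 61.0, 65.7 and 117 TPM (difference 0.68, SE 0.22, adjusted p with the block 0.27).

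**Figure D5:**
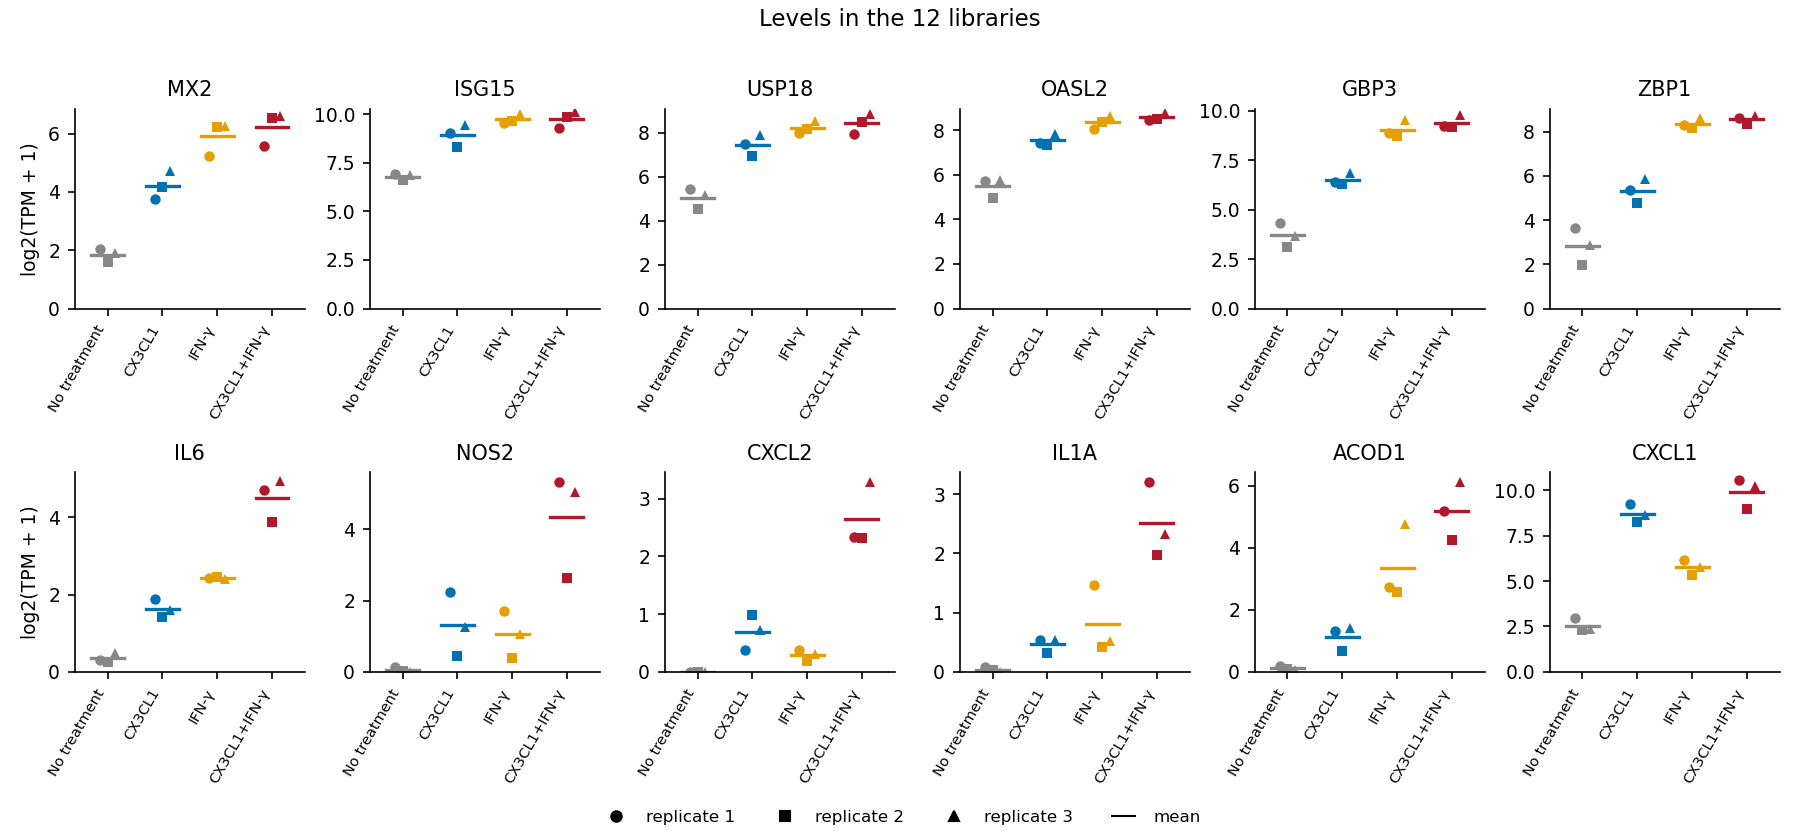
Levels of 12 genes in log2(TPM + 1) in each of the 12 libraries, by group, with symbols for replicates 1 to 3 and bars for group means. In the upper row (MX2, ISG15, USP18, OASL2, GBP3, ZBP1) the IFN-γ and CX3CL1+IFN-γ libraries lie at similar heights, and in the lower row (IL6, NOS2, CXCL2, IL1A, ACOD1, CXCL1) the CX3CL1+IFN-γ mean is the highest.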

How the data were processed

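RNA of CT26 cells was sequenced as 12 bulk libraries, 3 per group, from strand-specific Kapa mRNA libraries. Per the study's methods the authors aligned reads with STAR 2.7.3a to mm10 and used DESeq2 1.22.1 and VIPER downstream. The deposited values are TPM per gene symbol, made by the authors and summing to 1000000 per library. They carry no read depth, so no counting interval is given, and the annotation and the counting of shared reads are not given in the sources used here.

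The 11878 genes averaging 0.2 TPM or more were fitted as log2(TPM + 1) with limma 3.58.1 in R 4.3.3 (lmFit, then eBayes with trend) on the 4 groups of all 12 libraries, with no block and Benjamini-Hochberg adjustment over all genes at 0.05. Tables were made with Python 3.11.15 and pandas 2.3.3. The contrasts were CX3CL1+IFN-γ minus CX3CL1, IFN-γ minus No treatment, and their difference. TPM are no counts, so the count test of the study was not used. On simulated data over 11878 genes the first contrast recovered 181 of 200 genes changed by 1 on the log2 scale, with 16 false calls, and 198 of 200 changed by 2, with 7. The simulated noise was independent between libraries, and the changed genes all had a CX3CL1 mean of at least 2 TPM. These figures therefore do not cover lower genes or deviations that same-numbered libraries share.

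The labels do not say what a replicate number shares. Deviations from the group means correlated at 0.351, 0.353 and 0.428 between same-numbered CX3CL1 and CX3CL1+IFN-γ libraries, and at 0.429, 0.460 and 0.220 between No treatment and IFN-γ. For the other pairs of groups they ran from 0.0047 (No treatment and CX3CL1, replicate 2) to 0.649 (IFN-γ and CX3CL1+IFN-γ, replicate 3). The reported fit has no block, so its errors and adjusted p ignore any such pairing. Blocked values are given beside it for gene groups whose counts they change.

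Named genes are the 15 largest rises and falls among called genes whose groups do not overlap, the members of the gene lists, and the 10 largest differences of each sign among those called in the blocked fit. The comparison and the lists were chosen with earlier results of these data known. Alternatives were the block, other scalings, pseudocounts, filters and sample sets, no trend, a fold minimum, and leaving out each library. Gene positions are from GENCODE vM21 and promoter windows from RefSeq GRCm38.p6, the build of mm10. Results for some genes are not reported here.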

Additional observations from a re-analysis of the deposited data

How the results depend on the processing

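No call among the 346 named genes changed sign under the settings tried, but uncalled values could, such as that of NFKBIE (log2 fold change 0.18, and as low as -0.05 with 1 library left out). For IFN-γ added to CX3CL1, 447 genes were higher and 111 lower. Blocking on the replicate number gave 1035 and 334, fitting only the 6 libraries compared gave 286 and 58, and requiring a log2 change of 1 or more left 210 and 20. The lower count was 187 with median-ratio scaling and 228 with quantile normalization. Leaving out 1 library gave 221 to 511 higher and 49 to 157 lower genes, the least without CX3CL1+IFN-γ replicate 3 and the most without CX3CL1 replicate 2. The higher count moved by no more than 1.5 times without the other libraries, and the lower count was also 67 without CX3CL1 replicate 1 and 71 without CX3CL1+IFN-γ replicate 1. For IFN-γ alone, 702 genes were higher and 230 lower. The higher count was 1353 with the block, 299 with that minimum change, and 423 to 632 with 1 library left out, the least without No treatment replicate 3 and 452 without IFN-γ replicate 3. The lower count was 576 with the block, 437 with only the libraries compared, 351 with median-ratio scaling, 536 with quantile normalization, 32 with the minimum change, and 99 to 162 with 1 library left out, the least without IFN-γ replicate 3, with 107 without No treatment replicate 3, 130 without IFN-γ replicate 1 and 132 without No treatment replicate 1. The difference of the IFN-γ effects was called for 0 genes by limma, with 273 at an unadjusted p under 0.05. It was called for 52 with the block, for 1 with quantile normalization, and for 0 to 11 with 1 library left out, the 11 without No treatment replicate 1 all negative and the 1 without CX3CL1+IFN-γ replicate 2 positive. The cause of these changes was not tested. Among 346 named genes the block brought 38 calls and ended none, and leaving out CX3CL1+IFN-γ replicate 3 ended 60. TPM hold no read depth, so the precision of genes near 0.2 TPM cannot be set from these values.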
